A study of Bos taurus with 12 samples.

Results

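TET2, CXXC4 and SMARCA2 are 3 chromatin genes that have listed tiles in a comparison of bull sperm methylation. A tile here is a window of 500 bp whose methylation the authors compared between the groups, and a tile was taken for a gene where the annotation beside it carries that gene's description. This gave 9 tiles of the 7290 in the table: 3 for TET2 and 4 for CXXC4 on chromosome 6, and 2 for SMARCA2 on chromosome 8. The samples were sperm DNA of Bos taurus bulls, 6 in a group named low BFI and 6 in a group named high BFI, an abbreviation that the labels do not spell out. Breed, age and treatment are not given in the labels, nor is whether any bull gave more than 1 sample. Methylation was read by enzymatic methylation sequencing (EM-seq), which converts unmethylated cytosines with enzymes instead of bisulfite.

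TET2 is one of the enzymes that oxidise 5-methylcytosine to 5-hydroxymethylcytosine and further products, a step in the removal of DNA methylation. CXXC4, also called IDAX, carries a CXXC zinc finger that binds unmethylated CpG. It is thought to descend from the DNA-binding part of an ancestral TET2 gene, its protein is known to lower TET2 protein, and it also inhibits Wnt signalling by binding Dishevelled. SMARCA2, or BRM, is one of the alternative ATPases of the SWI/SNF complexes, which move nucleosomes. EM-seq reads 5-methylcytosine and 5-hydroxymethylcytosine alike, so the oxidised product of TET2 counts as methylated in this assay.

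The authors' deposited table holds a difference, a p-value and a q-value per tile and no value for a single sample. Depth per tile is unknown, and a spread between samples could not be computed. Which group was subtracted is stated neither in the headers nor in the labels, so differences keep their deposited sign and no group is called the more methylated. The differences were read as percentage points. Tiles with a deposited q under 0.05 and a difference of 10 percentage points or more in either direction are called counted tiles below. The groups were not tested anew. Positions follow the table, for which the submitters' notes name ARS-UCD1.2.

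Of the 3 genes, the tiles nearest to CXXC4 differed most, and they lay far from the gene. The 4 CXXC4 tiles differed by -10.8 to -4.41 percentage points in the authors' deposited table, the 3 TET2 tiles by 0.607 to 1.65, and the 2 SMARCA2 tiles by -0.279 and -0.127. Of the 9 tiles 1 was counted, a CXXC4 tile, where 2.78% of all listed tiles were. A q under 0.05 at any difference was reached by 6 of the 9 tiles, all 4 of CXXC4 and 2 of TET2, against 71.8% of all listed tiles and 89.6% of those on chromosome 6. The tiles of each gene overlap one another, so the 9 tiles stand for 3 places in the genome. Over all listed tiles the median size of a difference was 1.48 percentage points, which the TET2 tiles straddle, with CXXC4 above and SMARCA2 below.

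**Figure D1:**
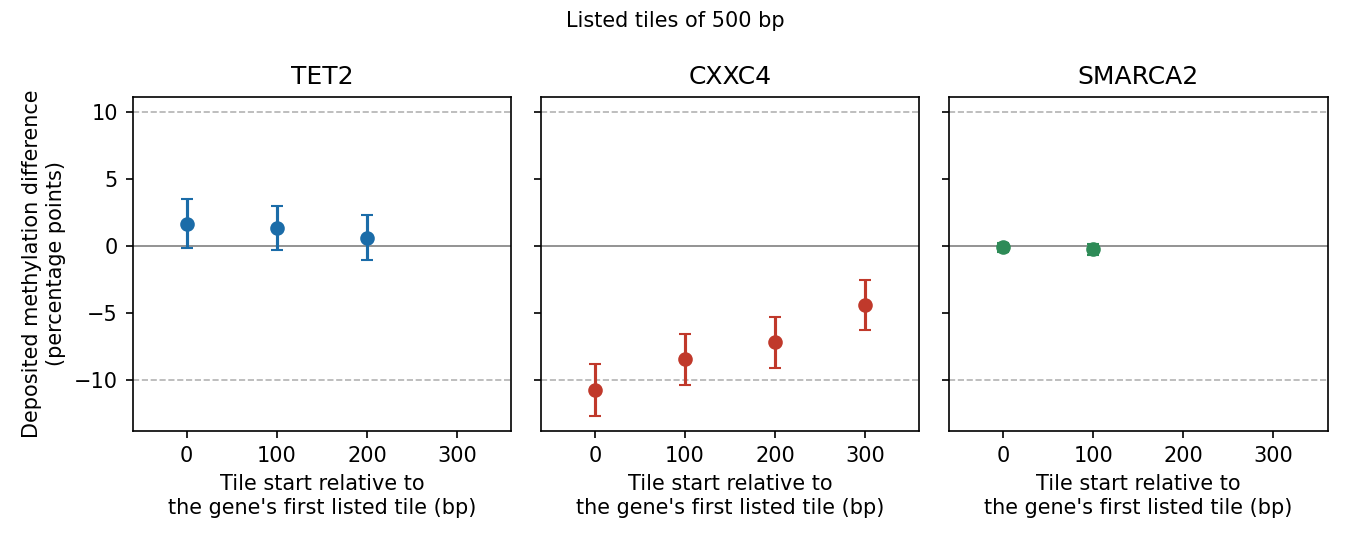
Deposited methylation difference in percentage points (vertical axis) of each listed tile, against the tile's start relative to the first listed tile of the gene in bp (horizontal axis), with 1 panel per gene. Bars are 95% intervals implied by the deposited difference and p-value, and dashed lines mark 10 percentage points. The 4 CXXC4 tiles lie between -10.8 and -4.41 with intervals below 0, while the intervals of the TET2 and SMARCA2 tiles include 0.

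The CXXC4 tiles lay in intergenic DNA on chromosome 6. They start at 20762601 and end at 20763400, together 800 bp. The closest annotated feature is a CXXC4 coding sequence of the + strand at 20704769 to 20704793, 57808 to 58108 bp away. Since the tiles lie at higher coordinates than this + strand feature, they are on its 3′ side. The table classes all 4 as distal intergenic, so CXXC4 is the nearest annotated gene, and none of the 4 overlaps it. A link between these tiles and the gene was not tested.

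In the authors' deposited table the difference of the tile from 20762601 to 20763100 was -10.8 percentage points (p = 7.38e-28, q = 2.65e-28). The next tile, starting 100 bp further on, is given in the authors' deposited table at -8.48 (q = 1.40e-18). The third stood at -7.22 (q = 2.55e-14) in the authors' deposited table. The last, from 20762901 to 20763400, stood at -4.41 (q = 9.00e-07) in the authors' deposited table. All 4 differences were negative and shrank with each step, so the first was 2.45 times the size of the last. Neighbouring tiles share 400 bp, and the first and last share 200 bp, so they are not separate measurements. Such a run is not rare in the table: of 221 runs of exactly 4 tiles in steps of 100 bp, 41 (18.6%) kept one sign and rose or fell throughout.

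The deposited p-values also carry the precision of the differences. If a p is read as two-sided from a normal statistic, the standard error of a difference is its size divided by that statistic. For the CXXC4 tiles this standard error was 0.960 to 0.986 percentage points. The implied 95% interval of the first tile was -12.7 to -8.86 percentage points, and that of the last tile -6.29 to -2.53. A difference of -10 percentage points lies within the interval of the counted tile. The second tile, not counted, had an interval of -10.4 to -6.56 that also includes -10. These intervals assume the error that the authors' test used. The sources used here do not give whether that error includes variation from bull to bull.

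Set against other tiles, the CXXC4 locus was high in the table without standing at its top. The size of its first tile was exceeded by 136 of the 7290 tiles, 18 of them among the 278 tiles of chromosome 6. Of the tiles of chromosome 6, 9.71% were counted, and of the distal intergenic tiles of all chromosomes, 4.77%. Among the 540 gene IDs of the table, CXXC4 was 14th by its largest difference. Such ranks do not account for the number of tiles, which differs between genes. Its negative sign is the common one, with 88.1% of the tiles on chromosome 6 and 71.6% of all tiles negative. The nearest other listed tile is 862700 bp away. When tiles within 1000 bp were joined, 54 of 1193 loci held a counted tile, and 9 of these 54 were farther from any other locus than CXXC4 is, as were 390 of all 1193 (32.7%). The median distance to the next locus was 301800 bp over all loci and 2650 bp over the 54.

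TET2 lies next to CXXC4 among protein-coding genes, and its tiles had the opposite deposited sign, with implied intervals that include 0. By the gene order of RefSeq on ARS-UCD2.0, from which no coordinate was taken, no protein-coding gene stands between TET2 and CXXC4. That order has 1 gene of another kind between them. The deposited table lists no tile in the 862700 bp that separate the tiles of the pair. The TET2 tiles run from 19899201 to 19899900 on chromosome 6, at the 3′ end of this - strand gene. The first tile is typed as 3′ UTR, yet 54 of its bases lie in the 3′ UTR and 446 in the adjoining coding sequence, from 19899255 to 19900744. The other 2 tiles lie wholly within that coding sequence. The TET2 promoter lies at higher coordinates, towards CXXC4, where no tile is listed before those of CXXC4.

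The authors' deposited table puts the tile from 19899201 to 19899700 at 1.65 percentage points (p = 0.0746, q = 0.0129). The tile 100 bp further on stands in the authors' deposited table at 1.30 (p = 0.121, q = 0.0207). The third is listed at 0.607 (p = 0.487, q = 0.0756), again in the authors' deposited table. All 3 were positive, and 0 of the 3 had a p under 0.05, where 83.8% of the tiles of chromosome 6 did. The implied standard errors were 0.837 to 0.924 percentage points. The tiles of chromosome 6 had a median of 0.3999 and an upper quartile of 0.5001, which the CXXC4 tiles exceeded as well. The share of 83.8% therefore comes from a set of tiles most of which had smaller errors than those of TET2. The intervals ran from -0.164 to 3.46 for the first tile and from -1.10 to 2.32 for the third. A difference of 10 percentage points lies outside each of the 3 intervals, and 0 lies inside each. Positive tiles were few on chromosome 6, with 33 of 278, and 1 of them exceeded the first TET2 tile in size. A p under 0.05 was reached by 16 of the 33, none of them a TET2 tile. By its largest tile TET2 was 167th of the 540 gene IDs.

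For the 2 TET2 tiles with a q under 0.05, the q lies below that limit and the p above it. Within each of the 27 chromosomes the deposited q never falls as p rises, whereas over the whole table it falls 3204 times when tiles are sorted by p. On chromosome 6 every q equals 0.148 times the Benjamini-Hochberg adjusted p over the 278 listed tiles of that chromosome, and on chromosome 8 it equals 0.445 times that over 214 tiles. The same p therefore carries a different q on each chromosome. The p of the first TET2 tile would have a q under 0.05 on 16 of the 27 chromosomes and of 0.05 or more on 9, chromosome 8 among them. On the other 2 it falls between listed tiles on either side of 0.05. Without the factor, the Benjamini-Hochberg adjusted p of the first TET2 tile was 0.0876 within chromosome 6 and 0.108 over all tiles. Both TET2 calls were lost under either adjustment, under which 62.2% of all tiles (within chromosomes) and 62.5% (over all tiles) still passed. The 4 CXXC4 tiles stay far below 0.05, the largest adjusted p over all tiles being 1.29e-05.

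**Figure D2:**
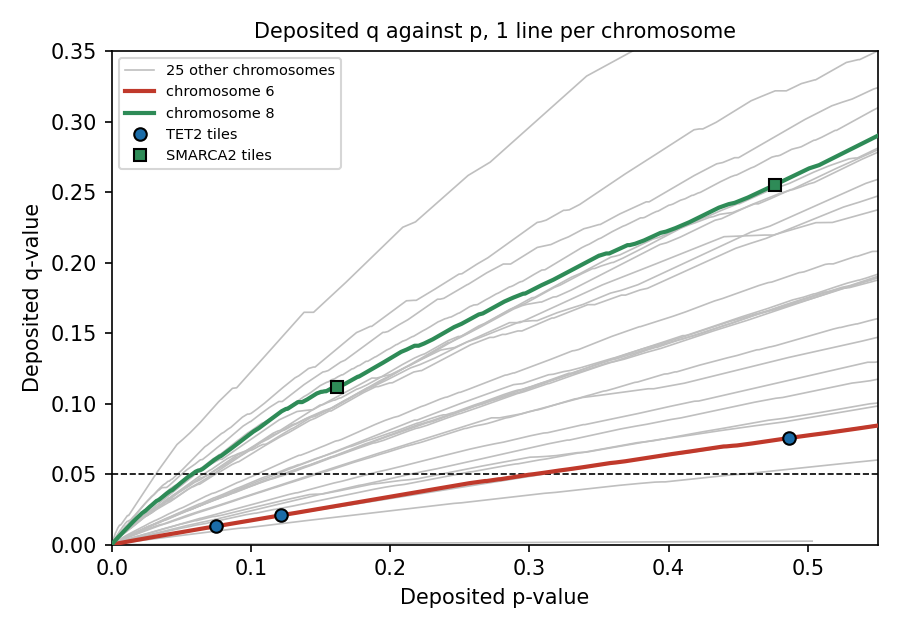
Deposited q-value (vertical axis) against deposited p-value (horizontal axis), with 1 line per chromosome through its listed tiles. The dashed line marks a q of 0.05. Chromosome 6, with the TET2 tiles as circles, runs well below chromosome 8, with the SMARCA2 tiles as squares. A p of 0.162 on chromosome 8 has a q of 0.112. On chromosome 6 the listed tiles on either side of that p have a q of 0.0225 and 0.0435.

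SMARCA2 was measured at its 5′ end and showed the smallest differences of the 3 genes. Its tiles run from 42546901 to 42547500 on chromosome 8 and share 418 and 445 bases with a 5′ UTR of this - strand gene, from 42546983 to 42547445. The table classes the first tile as downstream although most of it lies in the UTR. Deposited distances are counted from the start of the tile in all 7290 cases, and 597 of the 1888 tiles classed as downstream overlap their feature in this way. Both SMARCA2 tiles lie wholly inside a CpG island from 42546810 to 42549943, which the table names for the tile before them. CpG islands at gene starts are as a rule unmethylated in sperm. The level here was not used, since the table holds differences only.

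For the tile from 42546901 to 42547400 the authors' deposited table gives -0.127 percentage points (p = 0.476, q = 0.255). For the tile from 42547001 to 42547500 the authors' deposited table gives -0.279 (p = 0.162, q = 0.112). The island tile that starts 100 bp before them is at 0.146 in the authors' deposited table (q = 0.229), so the sign turns within overlapping windows. None of these 3 tiles had a q under 0.05, where 51.4% of the tiles of chromosome 8 and 66.1% of the 5′ UTR tiles did. Counted tiles made up 2.34% of chromosome 8. The implied standard errors of the 2 SMARCA2 tiles were 0.178 and 0.200 percentage points, below the median of 0.498 over all tiles and close to the lower quartile of 5′ UTR tiles, 0.196. The intervals were -0.477 to 0.222 and -0.671 to 0.112 percentage points. A difference of 1 percentage point in either direction lies outside both, with the same limit on what error the test used. By its largest tile SMARCA2 was 455th of the 540 gene IDs.

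**Figure D3:**
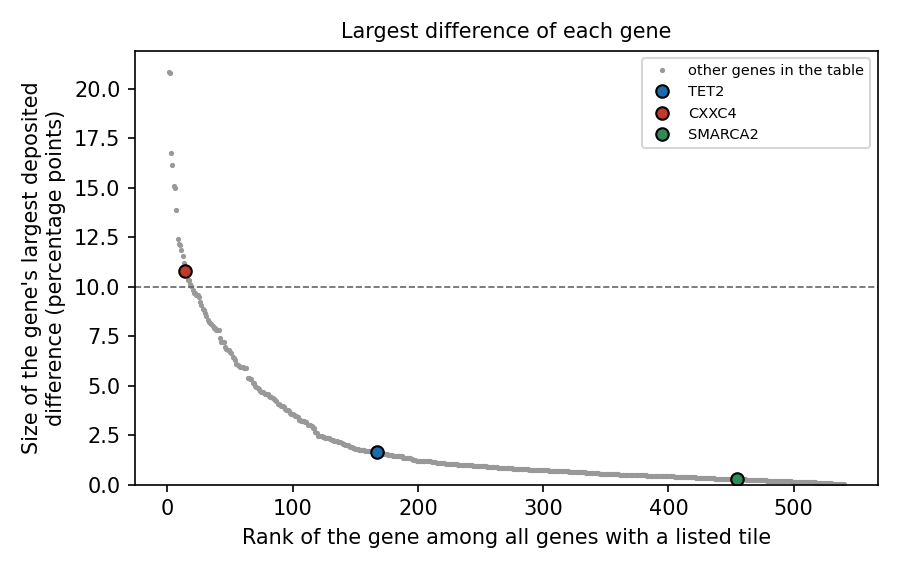
Size of the largest deposited difference of each of the 540 gene IDs in percentage points (vertical axis), against its rank (horizontal axis, largest first). The dashed line marks 10 percentage points. CXXC4 is 14th, TET2 167th and SMARCA2 455th. Ranks do not account for the number of tiles per gene.

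The nearest listed genes gave mixed values. Below TET2 the next tiles lie in an intron of CASP6, an executioner caspase, 4194600 bp away, at -0.973 to -0.0991 percentage points in the authors' deposited table, with no q under 0.05 in 4 tiles. Above CXXC4 the next tiles lie in an intron of UBE2D3, a ubiquitin-conjugating enzyme, 1252900 bp away. Its 2 tiles are put by the authors' deposited table at -1.64 and -1.54 percentage points (q = 0.000846 and 0.00177). On chromosome 8 the next gene below SMARCA2 is GLIS3, a zinc finger transcription factor, 1976600 bp away. Its 5 tiles, at -13.9 to -11.1 percentage points in the authors' deposited table, were all counted. They are classed as within the promoter and share no base with the coding sequence named for them, from 40574216 to 40574308. The nearest listed genes on both sides of CXXC4 thus had smaller differences than it.

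Few other genes of the same pathways had a listed tile. With 540 gene IDs in the whole table, this is not read as a trait of the pathways. Of the DNA methylation and demethylation genes looked for (the TET, DNMT, MBD and UHRF families and their partners), 3 were in the table: TET2, CXXC4 and GADD45A, a stress-induced gene linked to demethylation. Of these, 1 had a positive and 1 a negative tile with a q under 0.05, where 396 of the 540 gene IDs (73.3%) had such a tile in either direction. The positive one was TET2, for which no tile had a p under 0.05. The GADD45A tile, in an intron on chromosome 3, differs in the authors' deposited table by 0.00767 percentage points (q = 0.431). SMARCA2 was the only SWI/SNF subunit found. Of the Wnt receptors, ligands and Dishevelled partners, FZD3 alone was found. All 7 of its intronic tiles on chromosome 8 had a q under 0.05, at -1.78 to -0.761 percentage points in the authors' deposited table, and none was counted. A q under 0.05 was reached by 51.4% of the tiles of that chromosome. Of the 540 gene IDs, 77 have no description and could not be matched to any list. Sperm samples can hold other cells, and of the marker genes of these, IKZF1 for leukocytes was listed. Its 4 tiles stood at 2.98 to 4.97 percentage points in the authors' deposited table. All 4 had a q under 0.05, as did 71.8% of all listed tiles, and none was counted. No epithelial or accessory gland marker was listed. Of the sperm and germline markers, SPATA22 reached 1.03 percentage points and DPY19L2 -0.433 in the authors' deposited table. A q under 0.05 was reached by 2 of the 4 SPATA22 tiles and by the 1 DPY19L2 tile. The table gives no level of these markers, and the share of other cells was not tested.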

How the data were processed

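Sperm DNA of 12 samples, 6 per group, was profiled by EM-seq (per the labels' protocols). Trimmomatic, Bismark and methylKit are named, per the submitters' processing notes, with the builds ARS-UCD1.2 and bosTau9, without versions or settings. The authors deposited 1 table of their comparison, whose p-values and q-values and difference per tile are given per the file headers. No column belongs to a single sample (0 unmatched columns). Tiles were assigned to genes by the description of the closest feature. Standard errors were the size of the difference divided by the two-sided normal quantile of p. Benjamini-Hochberg adjustment was run on the deposited p within chromosomes and over all tiles. Both calculations were checked on simulated data in which p came from a normal statistic. Whether the deposited p did so was not tested. Gene symbols of the members were matched to RefSeq (ARS-UCD2.0), 3 of 3, with no coordinates used. The members, lists and thresholds were chosen with earlier results of these data known. The text names the 3 genes, list members with a tile, and the nearest listed gene or island on each side, of which 1 is not reported here. Sequences were not used here. Software was SciPy 1.17.1 and NumPy 2.4.6 under Python 3.11.15, with matplotlib 3.10.9 for plots and pandas 2.3.3 for tables.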

Additional observations from a re-analysis of the deposited data

How the results depend on the processing

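One tile of the 3 genes was counted with a minimum of 10 percentage points, against 3 with a minimum of 5, 0 with a minimum of 20 and 6 with no minimum. Over all tiles, 15.4% were counted with a minimum of 5 and 0.11% with a minimum of 20. The count stayed at 1 with a q under 0.01, with a p under 0.05 as well, with the Benjamini-Hochberg adjusted p over all tiles or within chromosomes in place of q, and with tiles joined into loci. Tiles with a q under 0.05 at any difference numbered 6, against 4 with either adjustment or with a p under 0.05, alternatives chosen after seeing the data, and the 2 lost tiles were those of TET2. The largest tiles of TET2 and CXXC4 were the same among tiles with a q under 0.05, and SMARCA2 had no such tile. Negative differences made up 6 of 9 tiles (66.7%), 2 of 3 when tiles did not overlap, and 2 of 5 (40.0%) within 10000 bp of the feature. No sample could be left out, since the table holds no value per sample. No paired analysis was possible because the running numbers in the titles are shared by no samples of the groups.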

Other observations

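The factor that links the deposited q to the Benjamini-Hochberg adjusted p was constant within 23 of the 27 chromosomes, and it ranged from 0.00488 on chromosome 28 to 0.611 on chromosome 22 among those 23. In all, 5007 of 7290 tiles had a q below their p. A tile with the lower p of the SMARCA2 pair, 0.162 (the tile at -0.279 percentage points), would have a q under 0.05 on 8 chromosomes, chromosome 6 among them, and of 0.05 or more on 18.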
